A study of Homo sapiens with 15 samples.

Results

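The comparison described here sets FB23-2 directly against CS2 in NCI-H69 cells, over all expressed genes. The libraries were chosen by their labels alone: the 3 H69 libraries treated with FB23-2 and the 3 treated with CS2, 6 of the 15 samples in the series. Poly(A)-selected RNA was sequenced from 2 small cell lung cancer lines, and the 6 samples of the other line, H82, were not analysed here because that line had no CS2 group. In H69 the 3 groups, of 3 libraries each, were the vehicle DMSO, CS2 and FB23-2. NCI-H69 is an established line of the classic, neuroendocrine type of small cell lung carcinoma, no genetic change was introduced in any group, and a single line stands for the tumour type. The sources used here state neither dose nor exposure time for either compound, so the treatments are compared as applied, without matching. The labels number the replicates but do not say whether they came from separate cultures, so p-values measure the spread between these libraries, which may be technical.

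FTO is a demethylase that removes N6-methyladenosine (m6A), a mark placed on mRNA by a methyltransferase built around METTL3 and METTL14, and FB23-2 and CS2 are both known as FTO inhibitors. CS2 is brequinar, which also blocks dihydroorotate dehydrogenase (DHODH), the mitochondrial enzyme of pyrimidine synthesis that feeds UMPS and thus the supply of UTP and CTP. The comparison asks what separates the mRNA responses to the 2 compounds. Several groups of genes below belong to the integrated stress response, in which phosphorylation of eIF2α slows translation and favours the transcription factor ATF4, whose targets make and import amino acids and charge tRNAs.

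The total count per library ran from 29916267 to 33663742 in CS2, from 32352835 to 43957839 in FB23-2 and from 31404658 to 45022633 in DMSO. Correlations of log levels were 0.989 to 0.990 within CS2, 0.988 to 0.990 within FB23-2 and 0.939 to 0.951 between the compounds. One library stood apart: FB23-2 replicate 2 had 10.97% of its counts on mitochondrial genes, against 6.83% and 6.91% in replicates 1 and 3, and results on those genes are given with and without it. Levels below are CPM, read counts scaled to a common library size with factors from the trimmed mean of M-values (TMM), and a difference is FB23-2 minus CS2 on the log2 scale with its standard error, from edgeR's quasi-likelihood test, called at an adjusted p under 0.05. Each value rests on 3 libraries per compound.

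The cells carried the neuroendocrine markers of their label. All 8 defining neuroendocrine markers examined were detected, with summed levels of 1950 to 2120 CPM in FB23-2 and 2220 to 2320 CPM in CS2. The tuft-cell factor POU2F3 and the non-neuroendocrine markers YAP1, REST and VIM were below 0.1 CPM in all libraries. So were the fibroblast markers COL3A1 and DCN, the blood-cell markers CD3E, CD68 and LYZ, the endothelial marker KDR and the airway marker SCGB1A1. Other markers of the tuft-cell, fibroblast, blood-cell, endothelial and airway types were detected. The 5 fibroblast markers summed to 52.5 to 54.3 CPM in DMSO, 32.9 to 39.6 CPM in CS2 and 10.5 to 15.3 CPM in FB23-2. COL1A2 alone made up most of that sum in every group. Of the 2 fibroblast markers tested, COL1A2 was lower and COL1A1 higher with FB23-2 than with CS2. Whether other cells were present was not tested. CD44, the other non-neuroendocrine marker, was present at 47.9, 56.2 and 53.9 CPM in CS2, 36.1, 45.7 and 39.5 CPM in FB23-2 and 47.7, 48.9 and 51.7 CPM in DMSO. It was lower with FB23-2 than with CS2, a difference of -0.38 ± 0.10 (adjusted p = 0.00223). In bulk RNA, fewer cells of a kind and less RNA per cell cannot be told apart, and this holds for every difference below.

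FTO (ENSG00000140718, chr16:53701692-54158512, GRCh38, GENCODE 29), the enzyme both compounds are described as inhibiting, was measured at 39.9, 39.98 and 39.4 CPM in the CS2 libraries, 55.3, 65.5 and 54.1 CPM in the FB23-2 libraries and 55.5, 56.6 and 58.7 CPM in DMSO. All 3 FB23-2 libraries lay above all 3 CS2 libraries and around the level of DMSO. The difference was 0.55 ± 0.09 (adjusted p = 2.1e-05). FTO spans 457 kb, and with a correction for gene span and GC content the difference was -0.18 (adjusted p = 0.0333), the opposite direction, so no direction is drawn for it. The mRNA level of an enzyme does not measure its inhibition.

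DHODH (ENSG00000102967, chr16:72008588-72027664), the known target of brequinar, stood at 8.25, 8.18 and 7.19 CPM in CS2 and 17.7, 16.4 and 14.2 CPM in FB23-2, with DMSO at 12.1, 12.1 and 13.6 CPM. The CS2 libraries were the lowest of the 9 and did not overlap with the FB23-2 libraries, a difference of 1.03 ± 0.12 (adjusted p = 6e-07). UMPS (chr3:124730366-124749273), the next enzyme, went the other way: 73.2, 74.1 and 69.8 CPM in CS2 against 39.5, 30.5 and 45.4 CPM in FB23-2. There the CS2 libraries were the highest of the 9, and the difference was -0.91 ± 0.11 (adjusted p = 5.8e-07). CAD (chr2:27217390-27243943), which carries out the first steps of the pathway, was at 196, 175 and 178 CPM in CS2 and 170.1, 149 and 151 CPM in FB23-2, a small difference of -0.22 ± 0.08 (adjusted p = 0.019). With the span and GC correction CAD gave 0.06 (adjusted p = 0.366), and without CS2 replicate 1 or FB23-2 replicate 3 it was not called (-0.17 and -0.19), so the call rests on the full set of uncorrected counts.

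The 2 treatments differed widely. Of 19781 genes tested, 11799 (59.6%) were called, 5870 (29.7%) higher and 5929 (30.0%) lower with FB23-2 than with CS2. More than 2-fold differences were called for 2329 genes (11.8%) in the higher and 2232 (11.3%) in the lower direction, and more than 4-fold for 709 and 654. Where only genes averaging 1 CPM or more were counted, 1462 and 1303 passed 2-fold. Tested against a minimum change of 1.5-fold, 4904 genes (24.8%) passed, 2539 higher and 2365 lower. In 12443 genes (62.9%) the 3 libraries of one compound all lay on one side of the 3 of the other. At the other end, 1791 genes (9.05%) had a 95% confidence interval wholly within 0.32 of 0 on the log2 scale, here called a bounded difference, and 6199 were neither called nor bounded in that way. With no filter on low counts, where 39027 genes were tested, 4295 differences were bounded. The median difference over all genes was 0.01, and these shares are the background for the gene lists below. Reads of genes named below with over 10% of their exon length under another gene, or over 10% of their 50-base windows in other genes' transcripts, cannot be assigned with certainty, since it is not known how the authors counted them. Such values are marked where they arise. Shared windows were not examined for ASNS, CHAC1, OAS3, IFI6, COL1A1 and several mitochondrial genes, so the lack of a mark says nothing on these.

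**Figure D1:**
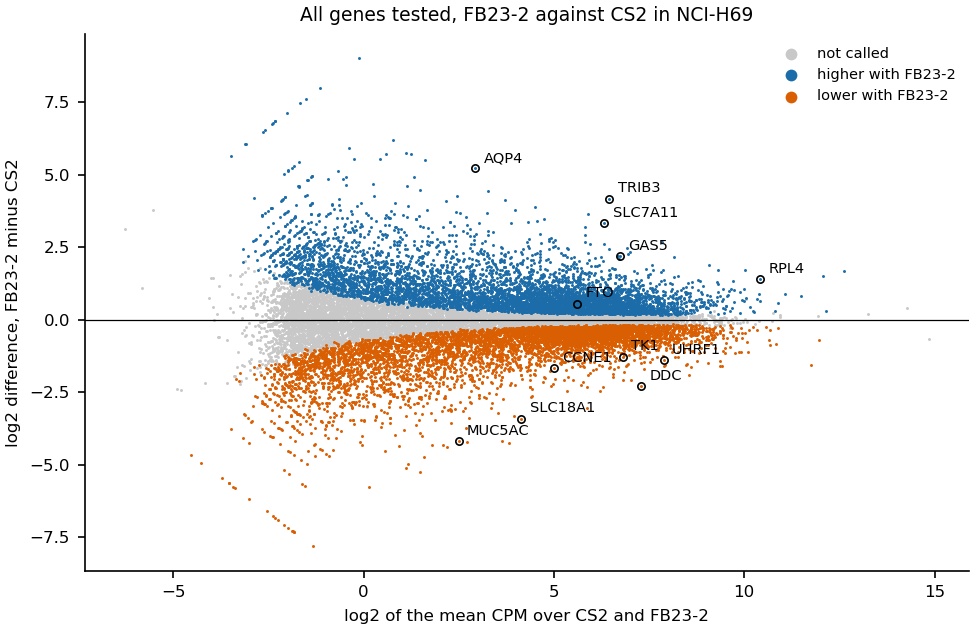
Log2 difference between FB23-2 and CS2 against the mean level of both compounds in CPM on a log2 axis, 1 point per gene tested. Blue and orange points are the 5870 genes called higher and the 5929 called lower with FB23-2, grey points were not called, and circled genes are described in the text; called genes of both directions lie across most of the range of levels.

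Among the gene lists with 10 or more genes tested, the ATF4 and integrated stress response list had the largest median difference. Of its 32 genes tested, 30 were higher with FB23-2 and none lower, 20 of them by more than 2-fold, and the median difference was 1.56. Promoter sequence is shown for the members in whose 300-base promoter (250 bases before to 50 after the RefSeq start site, GRCh38.p14) the ATF4 half-element TGATGNAA was found on either strand before the start site, because these are the genes for which the deposited counts can be read beside a possible element. The motif, in capitals, reads as written in ATF3 and ASNS and as its reverse complement in CHAC1 and FGF21:
ATF3 (chr1:212565196-212565243, plus strand): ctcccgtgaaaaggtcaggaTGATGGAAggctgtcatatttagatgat
ASNS (chr7:97872449-97872496, minus strand): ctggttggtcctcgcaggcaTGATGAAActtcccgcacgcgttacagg
CHAC1 (chr15:40953242-40953289, plus strand): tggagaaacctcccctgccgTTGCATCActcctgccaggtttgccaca
FGF21 (chr19:48755450-48755497, plus strand): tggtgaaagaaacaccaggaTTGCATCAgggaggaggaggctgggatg

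Of 25 list members with a promoter in the RefSeq table, 6 (24.0%) held TGATGNAA anywhere in the 300 bases, against 1.84% of all 12577 tested genes with one, 3.55% of 1269 genes more than 2-fold higher with FB23-2 and 1.81% of 1162 more than 2-fold lower. A match describes letters and not binding, and the motif was absent from this window in most members of the list. Its members were chosen by function, so their motif share does not bear on the difference between the compounds.

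TRIB3 (ENSG00000101255, chr20:362835-397559), a pseudokinase that damps ATF4 signalling, showed the largest difference of the list. It was at 10.4, 7.28 and 9.78 CPM in the CS2 libraries, 162, 177 and 160.0 CPM in FB23-2 and 5.53, 4.26 and 5.68 CPM in DMSO. The FB23-2 libraries stood far above both other groups, 18.1-fold over CS2, a difference of 4.18 ± 0.13 (adjusted p = 1.9e-14). SLC7A11 (chr4:138164097-138242349), the cystine importer, was at 14.3, 13.05 and 16.2 CPM in CS2, 132, 142 and 164 CPM in FB23-2 and 28.4, 35.6 and 30.6 CPM in DMSO. Here the compounds moved to opposite sides of DMSO, and their difference was 3.33 ± 0.11 (adjusted p = 7.1e-14). VEGFA, a secreted angiogenic factor, was at 9.52, 7.31 and 9.61 CPM in CS2 and 99.8, 118 and 111 CPM in FB23-2, without overlap, a difference of 3.63 ± 0.64 (adjusted p = 0.00263). Its standard error is large because the DMSO libraries, which share the estimate of the spread, were at 32.9, 8.59 and 6.82 CPM.

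The 4 genes whose promoters are printed moved with the list; ASNS and CHAC1 were picked for that match, after their values were seen, and the others by the rule for named genes. ASNS (chr7:97852118-97872542), which makes asparagine, was at 8.81, 8.05 and 7.09 CPM in CS2 and 48.4, 46.1 and 29.9 CPM in FB23-2, a difference of 2.38 ± 0.16 (adjusted p = 2.3e-10). CHAC1 (chr15:40952962-40956519), which degrades glutathione, was at 8.73, 7.61 and 9.08 and 54.7, 52.3 and 54.96 CPM, a difference of 2.67 ± 0.15. ATF3 (chr1:212565334-212620777), a stress-induced transcription factor, was at 25.5, 22.2 and 19.8 and 63.8, 62.6 and 77.1 CPM, a difference of 1.59 ± 0.12. In all 3 genes the CS2 libraries were also above DMSO, where means were 5.04 ± 0.666, 4.14 ± 1.39 and 6.94 ± 0.972 CPM. FGF21 (chr19:48755559-48758333), a stress hormone, was low throughout, at 0.147, 0.235 and 0.299 CPM in CS2 and 2.53, 3.04 and 2.77 CPM in FB23-2, and still differed by 3.61 ± 0.34 (adjusted p = 2.5e-08).

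The tRNA synthetases and the endoplasmic reticulum differed in the same direction. Of 20 cytosolic aminoacyl-tRNA synthetases, which attach amino acids to tRNAs, 13 were higher and 3 lower with FB23-2, with a median of 0.77. SARS1 (chr1:109213918-109238169), for serine, was at 88.9, 89.8 and 98.8 CPM in CS2 and 259, 298 and 274 CPM in FB23-2 and differed by 1.58 ± 0.08, GARS1 for glycine by 1.39 ± 0.08 and YARS1 for tyrosine by 1.11 ± 0.07 (adjusted p = 2.8e-12, 3.8e-11 and 2.2e-10). KARS1, for lysine, was lower with FB23-2, a difference of -0.31 ± 0.07 (adjusted p = 0.00118). HARS1, for histidine, was not called, with an interval of -0.30 to 0.01. Of 24 chaperones and degradation genes of the endoplasmic reticulum, 19 were higher and 1 lower, with a median of 0.64. ERN1 (chr17:64039142-64130819), the kinase and nuclease IRE1α that senses unfolded protein, was at 18.5, 19.1 and 19.5 CPM in CS2 and 71.3, 71.1 and 62.4 CPM in FB23-2, a difference of 1.84 ± 0.09 (adjusted p = 4.7e-12). SEL1L, a scaffold of degradation from the reticulum, differed by 1.72 ± 0.09 and CREB3L2, a membrane-bound transcription factor, by 1.74 ± 0.11. The 1 lower member, DERL3, differed by -0.44 ± 0.14, and 77.0% of its exon length overlaps SMARCB1, so its reads are uncertain; it was not called without CS2 replicate 1 (-0.35) or with the span and GC correction (-0.043, adjusted p = 0.787). CREB3L2 and ERN1 were below DMSO with CS2 (-1.14 and -0.62) and above it with FB23-2 (0.60 and 1.23); both of these differences share the DMSO libraries.

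**Figure D2:**
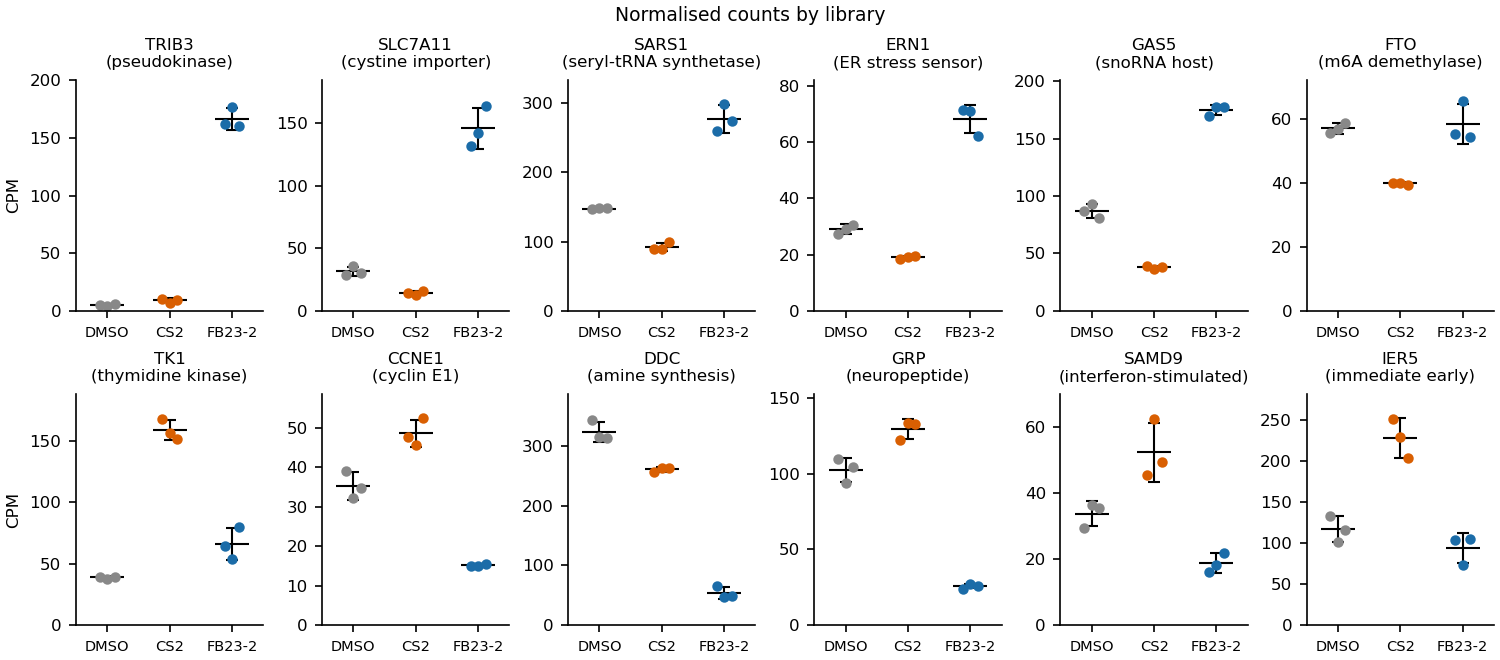
Normalised counts (CPM, linear axes from 0) of 12 genes in the 9 libraries; points are libraries, grey for DMSO, orange for CS2 and blue for FB23-2, and bars show mean and SD of 3. In each panel the CS2 and FB23-2 points do not overlap, higher for FB23-2 in the 6 upper panels and lower in the 6 lower ones.

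Antioxidant genes were split. Of 23 tested targets of NRF2, the transcription factor freed from KEAP1 by oxidants and electrophiles, 14 were higher and 7 lower with FB23-2 (4 lower with the span and GC correction), with a median of 0.63. Besides SLC7A11, the list held ME1, an NADPH-making malic enzyme that differed by 3.26 ± 0.40, and OSGIN1, an oxidative stress growth inhibitor with 12.1% of its windows shared, at 0.320 ± 0.0159 CPM in CS2 and 2.09 ± 0.916 CPM in FB23-2, by 2.69 ± 0.43 (adjusted p = 8.3e-07 and 2.1e-05). HMOX1, the haem oxygenase, was at 6.69, 5.63 and 7.52 CPM in CS2 and 11.6, 12.4 and 19.6 CPM in FB23-2 and differed by 1.13 ± 0.17, without overlap. On the lower side were KEAP1 itself (-0.91 ± 0.11), the glutathione peroxidase GPX2 (-0.70 ± 0.07) and the exporter ABCC2 (-1.20 ± 0.28). Iron handling showed 6 higher and 3 lower of 12. TFRC (chr3:196027183-196082189), the transferrin receptor, was at 423, 500.4 and 489.9 CPM in CS2, 1177, 1125 and 1284 CPM in FB23-2 and 369, 394 and 393 CPM in DMSO. Every FB23-2 library was above every CS2 library, a difference of 1.34 ± 0.08 (adjusted p = 3.8e-11). FTL, the ferritin light chain, was lower, with a difference of -0.60 ± 0.08, and 18.3% of its 50-base windows occur in other genes' transcripts. IREB2, an iron-sensing RNA-binding protein, was higher by 0.72 ± 0.07 and the divalent metal transporter SLC11A2 was not called (interval -0.10 to 0.23).

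Genes of nucleotide supply and DNA replication were lower with FB23-2. Of 20 pyrimidine genes 2 were higher and 11 lower (median -0.35), of 10 genes of deoxynucleotide supply 1 was higher and 8 lower (median -0.50), and of 30 genes of the G1/S transition and replication 1 was higher and 24 lower (median -0.43). TK1 (ENSG00000167900, chr17:78174075-78187233), the salvage kinase for thymidine, was at 168, 157 and 152 CPM in CS2, 64.5, 53.6 and 79.9 CPM in FB23-2 and 39.3, 37.9 and 39.6 CPM in DMSO. Both compounds lay above DMSO, CS2 by more, and the compounds differed by -1.27 ± 0.11 (adjusted p = 4.9e-09). UCK1, the uridine kinase of salvage, was lower, with a difference of -1.01 ± 0.08, while the nucleoside carrier SLC29A2, with 10.3% of its exon length under another transcript, was higher by 1.32 ± 0.10. The CTP synthase CTPS1 was not called, with an interval of -0.28 to 0.03. SAMHD1, which degrades deoxynucleotides and has 10.3% of its exon length under TLDC2, RRM1, the large subunit of ribonucleotide reductase, and DTYMK, a thymidylate kinase, were lower, with differences of -0.95 ± 0.08, -0.65 ± 0.08 and -0.79 ± 0.11, and RRM2B, a p53-controlled reductase subunit, was higher by 0.38 ± 0.10.

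Cyclin E1 (CCNE1, chr19:29811898-29824308), which drives entry into S phase, was at 47.8, 45.7 and 52.4 CPM in CS2, 14.9, 15.1 and 15.5 CPM in FB23-2 and 39.2, 32.2 and 34.7 CPM in DMSO. The FB23-2 libraries were the lowest of the 9 and the CS2 libraries the highest, a difference of -1.68 ± 0.10 (adjusted p = 3.8e-11). UHRF1, which maintains DNA methylation at replication forks, was lower, with a difference of -1.39 ± 0.08, with 21.1% of its 50-base windows shared with other genes, and the activator E2F2 by -1.05 ± 0.09. GINS1, a subunit of the replicative helicase, was the 1 higher member (0.24 ± 0.08, adjusted p = 0.0128) and was not called without CS2 replicate 2 (0.22) or with the span and GC correction (0.14, adjusted p = 0.109). Among 28 genes of G2 and mitosis 2 were higher and 21 lower, with a median of -0.43. CCNF, BIRC5 and KIF20A, a cyclin (11.8% of its exon length under another gene), an apoptosis inhibitor of the mitotic complex and a kinesin of cytokinesis, were lower, with differences of -1.43 ± 0.09, -1.11 ± 0.09 and -1.09 ± 0.08. The lists differed in where the compounds stood against DMSO. The G1/S median was -0.02 for FB23-2 and 0.42 for CS2, whereas the G2/M median was -0.52 for FB23-2 and -0.15 for CS2; these medians share the DMSO libraries. The E2F motif TTTNGCGC was found on either strand in 13 of 26 G1/S promoters against 2.87% of all 12577, and the cell cycle element TTTGAA in 12 of 23 G2/M promoters (52.2%) against 10.3% of all. These lists were chosen by function, so their motif shares do not bear on the difference between the compounds. Among genes more than 2-fold lower and more than 2-fold higher with FB23-2, TTTNGCGC was in 1.98% and 2.76% of promoters. For TTTGAA these shares were 11.8% and 11.7%.

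Hosts of small nucleolar RNAs and ribosomal proteins were higher with FB23-2. Of 18 nuclear long non-coding RNAs and snoRNA hosts 13 were higher and none lower, with a median of 0.90. GAS5 (chr1:173863900-173868882), a host whose spliced RNA is degraded when translation runs, was at 39.5, 36.3 and 37.8 CPM in CS2, 169, 177 and 177 CPM in FB23-2 and 87.3, 93.3 and 80.7 CPM in DMSO. CS2 lay below and FB23-2 above DMSO in every library, and the difference was 2.21 ± 0.08 (adjusted p = 1.8e-13). MIR17HG, the host of an oncogenic microRNA cluster, with 13.55% of its exon length under MIR19B1, was higher by 2.25 ± 0.20, with 1.10 ± 0.309 CPM in CS2, 5.24 ± 0.316 CPM in FB23-2 and 8.12 ± 0.985 CPM in DMSO. ZFAS1, another snoRNA host, was higher by 2.39 ± 0.20, but 46.95% of its exon length overlaps another gene. NORAD, a long RNA that binds Pumilio proteins, was not called (interval -0.30 to 0.03) except without CS2 replicate 3 (-0.21), and 30.3% of its windows are shared.

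Of 55 cytosolic ribosomal proteins, 39 (70.9%) were higher with FB23-2 and 1 lower, with a median of 0.45. The list median was 0.08 against DMSO for FB23-2 and -0.39 for CS2. RPL23 (chr17:38847865-38853843) was at 139, 138 and 196 CPM in CS2, 413, 468 and 471 CPM in FB23-2 and 400.1, 398 and 383 CPM in DMSO. The CS2 libraries were set apart from the other 6, a difference of 1.51 ± 0.11 (adjusted p = 8.5e-10). RPL4 differed by 1.40 ± 0.08 (13.4% of its windows shared with other genes). Ribosome assembly did not follow: of 26 genes of ribosome biogenesis and RNA polymerase I, 6 were higher and 11 lower, with a median of -0.17. TAF1D, a subunit of the polymerase I selectivity factor with 17.3% of its exon length under CEP295, was higher by 1.67 ± 0.09 and UBTF, its partner on the rDNA promoter, was lower, with a difference of -0.69 ± 0.07 (adjusted p = 2.5e-11 and 3e-08).

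Interferon-stimulated genes were lower with FB23-2 than with CS2. Of 21 tested, 11 were lower and 1 higher, and the median was -0.47. Against DMSO the list median was above 0 with both compounds, 0.44 for FB23-2 and 0.75 for CS2, and these medians share the DMSO libraries. Promoter windows of 5 members called lower, those with a match before the start site, are shown with the core of the interferon-stimulated response element, GAAANNGAA on either strand, in capitals, since 7 of the 10 lower members with a promoter held it:
IFI27 (chr14:94110609-94110669, plus strand): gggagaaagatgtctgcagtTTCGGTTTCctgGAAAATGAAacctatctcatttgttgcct
ISG15 (chr1:1013364-1013424, plus strand): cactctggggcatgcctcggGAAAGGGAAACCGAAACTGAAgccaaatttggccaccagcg
SAMD9 (chr7:93118087-93118135, minus strand): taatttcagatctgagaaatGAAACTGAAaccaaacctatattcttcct
OAS3 (chr12:112938311-112938359, plus strand): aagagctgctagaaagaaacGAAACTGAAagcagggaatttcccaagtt
IFI6 (chr1:27672257-27672368, minus strand): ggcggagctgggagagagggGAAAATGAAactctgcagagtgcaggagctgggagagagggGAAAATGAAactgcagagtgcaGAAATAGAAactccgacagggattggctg

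In all, 11 of 17 list promoters (64.7%) held the motif, against 6.29% of the 12577, 7.17% of those more than 2-fold higher and 5.85% of those more than 2-fold lower. The list was chosen by function, so its motif share does not bear on the difference between the compounds. In ISG15 adjoining matches overlap each other. The levels were low to moderate. IFI27 (chr14:94104836-94116698), a mitochondrial protein, was at 6.81, 4.90 and 4.13 CPM in CS2, 0.984, 0.767 and 0.904 CPM in FB23-2 and 0.842, 0.859 and 0.666 CPM in DMSO. Only the CS2 libraries were raised, and the difference was -2.58 ± 0.24 (adjusted p = 1.9e-08). SAMD9 (chr7:93099513-93118023), an antiviral translation inhibitor, was at 45.4, 62.4 and 49.2 CPM in CS2 and 15.98, 18.1 and 21.9 CPM in FB23-2, a difference of -1.49 ± 0.13. ISG15 (chr1:1001138-1014540), a ubiquitin-like protein, was at 4.63, 3.52 and 4.76 and 1.91, 0.863 and 2.01 CPM, a difference of -1.45 ± 0.26 (adjusted p = 6.8e-05). The other 2 genes printed, OAS3 and IFI6, picked for the motif after their values were seen, differed by -0.83 ± 0.07 and -1.16 ± 0.23. The transcription factor IRF1 was the 1 higher member (0.37 ± 0.13, adjusted p = 0.0161). IRF1 was not called without CS2 replicate 3 (0.24), and 22.0% of its exon length overlaps IRF1-AS1.

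Antigen presentation by MHC class I showed 2 higher and 7 lower of 15 (median -0.21), but with the span and GC correction 5 were higher and 4 lower (median 0.10), and without FB23-2 replicate 3 only 4 were lower, so no direction is drawn for it. B2M, the light chain of MHC class I, was lower, with a difference of -0.64 ± 0.08 (adjusted p = 1.6e-06). Both compounds were above DMSO in this list, with medians of 0.67 for FB23-2 and 0.84 for CS2. Immediate early genes were mixed at 5 higher and 8 lower of 19 (5 lower with the correction). IER5 (chr1:181088712-181092899), a regulator of the heat shock factor, was at 251, 229 and 203 CPM in CS2 and 104, 73.2 and 104 CPM in FB23-2, a difference of -1.28 ± 0.13 (adjusted p = 9.7e-07), and JUNB, an AP-1 subunit with 14.2% of its exon length under HOOK2, was lower, with a difference of -0.89 ± 0.11. ATF3 and the mRNA decay factor ZFP36 were higher, by 1.59 ± 0.12 and 1.34 ± 0.22.

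More neuroendocrine genes were lower than higher with FB23-2, but the counts moved with the correction for span and GC content. Of 28 tested, 3 were higher and 16 lower (median -0.34), and with the span and GC correction 6 were higher and 9 lower (median -0.11). Without FB23-2 replicate 1 the higher count was 5. SLC18A1 (chr8:20144855-20183206), which loads amines into vesicles, was at 34.8, 30.2 and 32.2 CPM in CS2, 4.38, 2.42 and 2.42 CPM in FB23-2 and 26.4, 26.9 and 29.3 CPM in DMSO. The CS2 libraries lay slightly above DMSO and every FB23-2 library far below both, and CS2 and FB23-2 differed by -3.41 ± 0.17 (adjusted p = 2.9e-12). GRP (chr18:59220168-59230774), the bombesin-like neuropeptide, was at 122, 133 and 133 CPM in CS2 and 24.2, 26.9 and 26.2 CPM in FB23-2, a difference of -2.33 ± 0.09. DDC (chr7:50458436-50565457), the decarboxylase that makes dopamine and serotonin, was at 256, 263 and 262 CPM in CS2 and 65.5, 46.6 and 49.1 CPM in FB23-2, a difference of -2.28 ± 0.10. In GRP and DDC too the FB23-2 libraries were the lowest of the 9. The 3 adjusted p-values were 2.9e-12, 1.8e-13 and 9.9e-13.

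NEUROD1, a neuroendocrine transcription factor, was near the limit of detection, at 0.295, 0.537 and 0.532 CPM in CS2 and 0.239, 0.288 and 0.350 CPM in FB23-2, and was not called (interval -1.54 to 0.30). The higher members were PCSK2, a prohormone convertase (1.56 ± 0.10), the adhesion molecule NCAM1 (1.15 ± 0.08) and the granin SCG2 (0.54 ± 0.09). PCSK2 and NCAM1 span 258 and 317 kb. PCSK1, the partner convertase, was not called (adjusted p = 0.071), but passed with the replicate number as a block (0.15, adjusted p = 0.0463).

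Of 16 genes of synaptic vesicle release 8 were higher and 5 lower (3 lower with the correction). The 3 largest were RIMS2, an active-zone scaffold (1.75 ± 0.11), SYT1, the calcium sensor of release (1.74 ± 0.11), and SNAP91, a clathrin adaptor (1.40 ± 0.11); RIMS2 and SYT1 span 755 and 588 kb. The Notch pathway, which opposes neuroendocrine fate, had 3 higher and 13 lower of 20, with a median of -0.73 that became -0.23 with the span and GC correction (4 higher, 10 lower). HEY1 (chr8:79764010-79767863), a Notch target, was at 30.9, 32.7 and 30.8 CPM in CS2 and 12.1, 10.96 and 9.94 CPM in FB23-2, a difference of -1.51 ± 0.11 (adjusted p = 3.4e-10). HES1, another target, and the inhibitory ligand DLK1 were lower, with differences of -1.35 ± 0.24 and -2.02 ± 0.26, and the coactivator MAML2, which spans 367 kb, was higher by 1.92 ± 0.14.

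**Figure D3:**
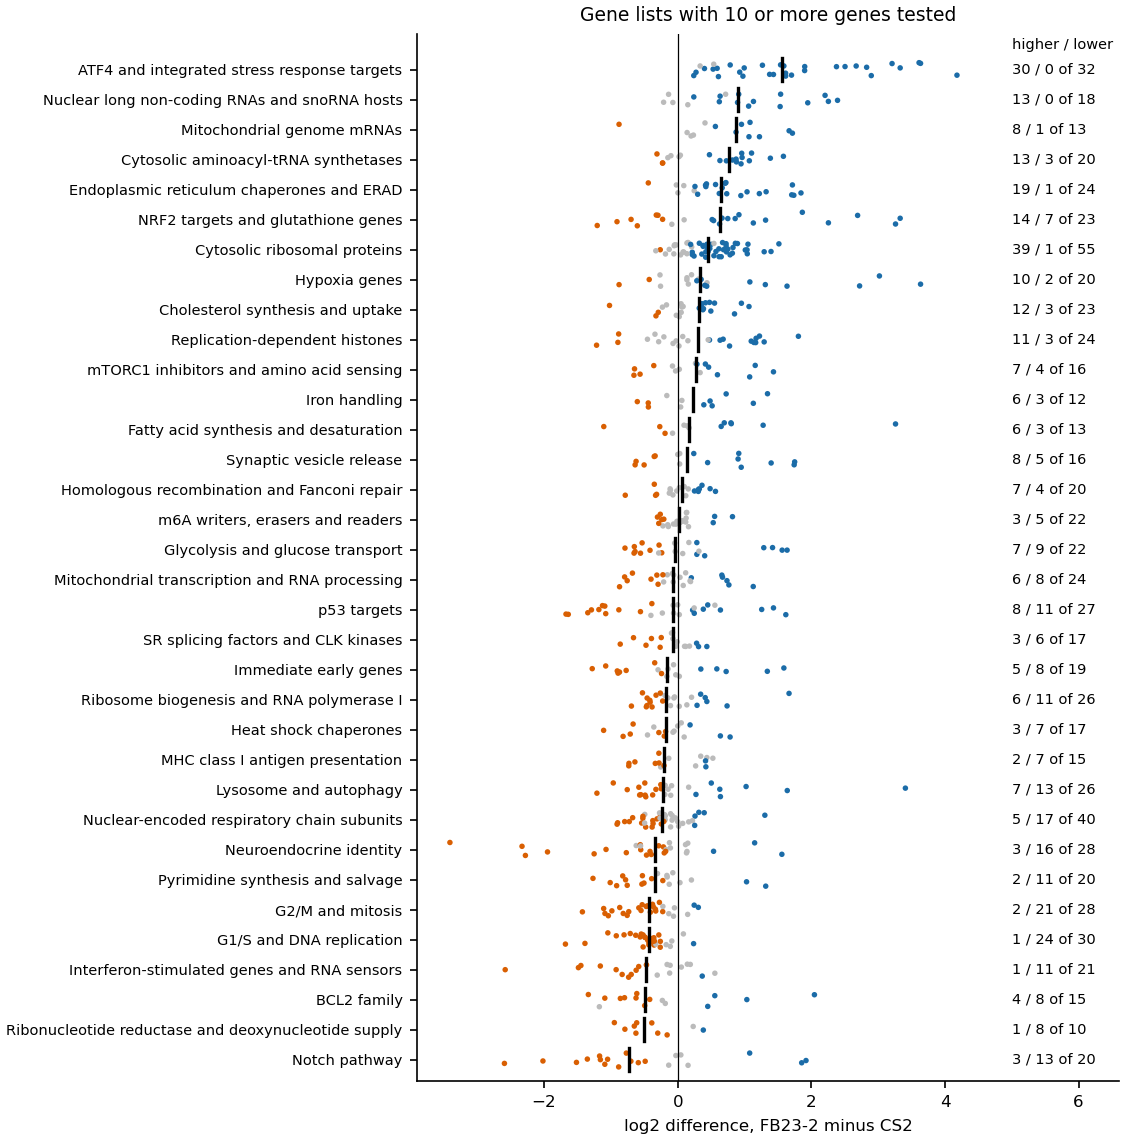
Log2 difference between FB23-2 and CS2 for the members of the gene lists with 10 or more genes tested; points are genes (blue called higher, orange called lower, grey not called), black bars are medians, and the figures at the right count the called members. The ATF4 list has the highest median, 1.56, and the Notch list the lowest, -0.73.

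The length of a gene went with the difference between the compounds. Among protein-coding genes the median difference was -0.30 for 2679 genes spanning up to 10 kb, -0.11 for 5987 of 10 to 50 kb, 0.16 for 4135 of 50 to 200 kb, 0.52 for 962 of 200 to 500 kb and 1.03 for 261 over 500 kb. In the longest class 183 genes (70.1%) were higher with FB23-2 and 26 (9.96%) lower, and in the shortest 467 (17.4%) were higher and 1258 (47.0%) lower. Against DMSO the longest class had a median of -1.37 with CS2 and -0.30 with FB23-2, and the shortest 0.14 and -0.16; these values share the DMSO libraries. HS6ST3 (chr13:96090839-96839562), a heparan sulphate sulfotransferase spanning 749 kb, was at 0.472, 1.17 and 0.931 CPM in CS2, 15.9, 17.95 and 21.2 CPM in FB23-2 and 10.2, 9.51 and 11.4 CPM in DMSO. The CS2 libraries were far below the other 6, a difference of 4.43 ± 0.21 (adjusted p = 2.2e-12). THSD4, a matrix protein gene of 686 kb, differed by 3.69 ± 0.18. EGLN3, an oxygen-sensing hydroxylase, went against its class: it spans 539 kb and was lower, with a difference of -0.88 ± 0.18 (adjusted p = 0.00046). Spans here run between the outer ends of the annotated gene, and single transcripts may cover less. Intron-free protein-coding genes, 339 in number, had a median of -0.22. A correction that fits span and GC content in each library removed the trend by construction; of the 11799 calls 9444 were then made in the same direction and 127 in the opposite one.

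**Figure D4:**
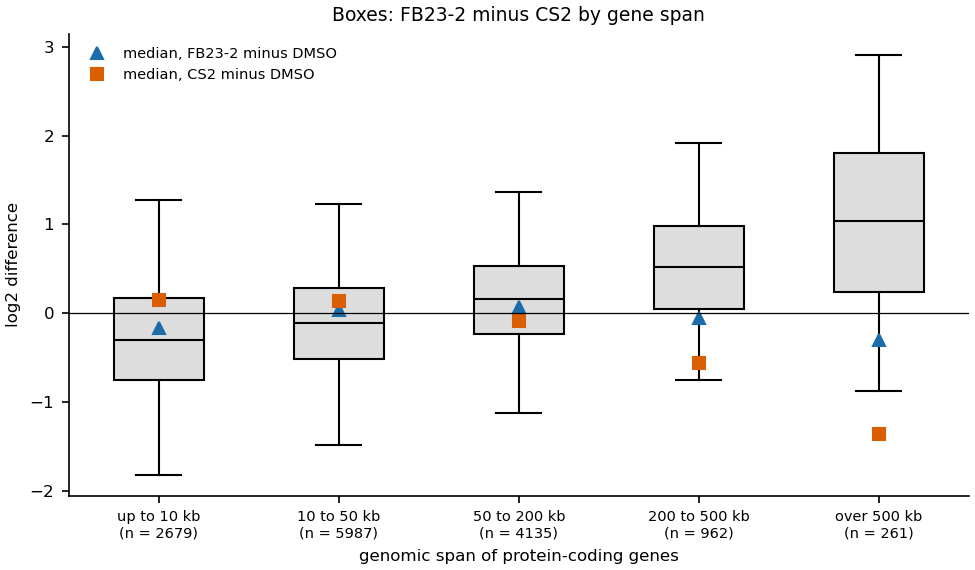
Log2 differences of protein-coding genes by genomic span: boxes give quartiles, whiskers the 5th to 95th percentiles and lines the median of FB23-2 minus CS2, triangles and squares the medians of each compound minus DMSO. The boxes climb from a median of -0.30 for genes up to 10 kb to 1.03 for genes over 500 kb, where CS2 sits at -1.37 and FB23-2 at -0.30 against DMSO.

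For transcripts of the mitochondrial genome the differences were negative near the start of the map and positive further on, without a steady rise. The 2 mitochondrial ribosomal RNAs took 3.58% to 4.61% of the counts in CS2, 1.92%, 3.41% and 1.94% in FB23-2 and 0.907% to 1.06% in DMSO. The heavy strand is copied as 1 long precursor that starts before the ribosomal RNAs, and most of its products are cut apart at tRNAs. ATP8, ATP6 and CO3 overlap end to end, as do ND4L and ND4, so their values need not stand for separate RNAs. In map order, the differences were -1.57 ± 0.17 for the small and -0.66 ± 0.27 for the large ribosomal RNA, -0.88 ± 0.19 for ND1, 0.24 ± 0.19 for ND2, 0.41 ± 0.19 for CO1 and 0.20 ± 0.21 for CO2. Further on they were 1.22 ± 0.38 for ATP8, 0.56 ± 0.11 for ATP6, 0.14 ± 0.11 for CO3, 0.95 ± 0.20 for ND3, 1.72 ± 0.22 for ND4L, 1.67 ± 0.21 for ND4, 0.87 ± 0.20 for ND5 and 1.07 ± 0.10 for CYB. MT-RNR1 and MT-ND1, near the start, were thus called lower with FB23-2, and MT-ATP8, MT-ATP6, MT-ND3, MT-ND4L, MT-ND4, MT-ND5 and MT-CYB, further on, were called higher. MT-RNR1 was at 5244, 5863 and 4385 CPM in CS2, 1508, 2225 and 1501 CPM in FB23-2 and 1235, 1099 and 946 CPM in DMSO. MT-CYB, the subunit of complex III at the far end, was at 676, 696 and 616 CPM in CS2, 1152, 1592 and 1419.6 CPM in FB23-2 and 3075, 2855 and 2506 CPM in DMSO. In both genes the compounds did not overlap, in opposite directions.

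The list of 13 mitochondrial mRNAs adds MT-ND6, which lies on the other strand and was also called higher with FB23-2. Of these 13, 8 were higher and 1 lower, with a median of 0.87. Without FB23-2 replicate 2 these were 7 and 1, with a median of 0.56. Without that library MT-RNR1 gave -1.78, MT-ND1 -1.12, MT-ND4 1.35 and MT-CYB 0.96. MT-RNR2 was not called with all libraries in the fit (adjusted p = 0.0725), was called without that library (-1.06, adjusted p = 1.9e-10) and was called with the replicate block (-0.71, adjusted p = 0.0146). MT-CO1, not called at an adjusted p of 0.0928, also passed with the block (0.38, adjusted p = 0.0348) and without FB23-2 replicate 1 or 3 (0.55 and 0.55). MT-ND2, not called at an adjusted p of 0.318, passed only with the block over the 6 treated libraries (0.21, adjusted p = 0.0278), and MT-CO3 passed without FB23-2 replicate 1 (0.28). Between 14% and 30.6% of the 50-base windows of MT-RNR2, MT-ND1 and MT-CO3 are shared with other transcripts, and 22.2% of MT-ATP8 lies under MT-ATP6. Shared windows were not examined for MT-ND2, MT-CO1, MT-CO2, MT-ATP6, MT-ND3, MT-ND5, MT-ND6 and MT-CYB. MT-ATP8 lost its call without FB23-2 replicate 2 (0.91, adjusted p = 0.0938). Several other settings ended that call too. Of 24 nuclear genes of mitochondrial transcription and RNA processing 6 were higher and 8 lower; TFB1M, an rRNA methyltransferase, was higher by 1.13 ± 0.11, and the polymerase POLRMT was lower, with a difference of -0.87 ± 0.08, with 22.2% of its windows shared. Of 40 nuclear-encoded respiratory chain subunits 5 were higher and 17 lower (median -0.23), with 2 higher without CS2 replicate 1, CS2 replicate 2 or FB23-2 replicate 3.

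**Figure D5:**
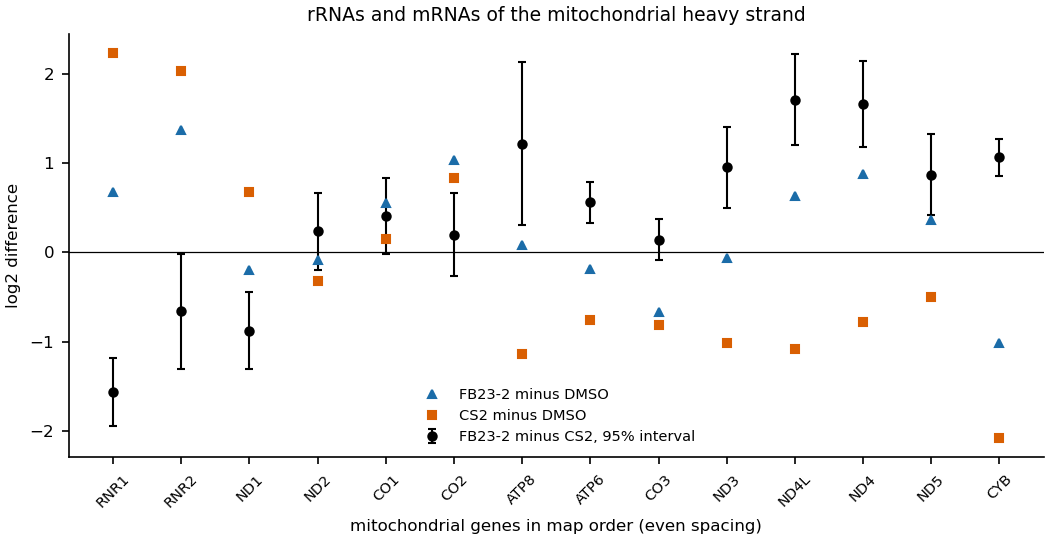
Log2 differences of the 14 ribosomal RNA and protein-coding genes of the mitochondrial heavy strand in map order, evenly spaced. Black points are FB23-2 minus CS2 with 95% confidence intervals, triangles FB23-2 minus DMSO and squares CS2 minus DMSO. The black points run from -1.57 at MT-RNR1 to 1.07 at MT-CYB, with the highest at MT-ND4L, 1.72.

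Fewer genes of the m6A machinery were called than of all genes. Of 22 writers, erasers and readers 3 were higher and 5 lower, 13.6% and 22.7% against 29.7% and 30.0% of all genes. The lower count was 3 without CS2 replicate 2 or FB23-2 replicate 1, and 8 without FB23-2 replicate 2. Bounded differences were found in 10 of the 22, against 1791 of all 19781 genes (9.05%). All genes are an uneven background for this, since 1753 of 14037 protein-coding genes were bounded but only 9 of 1281 lincRNAs. METTL3 was at 95.6, 88.7 and 93.6 CPM in CS2 and 96.3, 80.7 and 89.2 CPM in FB23-2, with a difference of -0.06 ± 0.08 and an interval of -0.24 to 0.11. METTL14 was at 23.6, 26.8 and 24.1 CPM in CS2 and 23.3, 29.3 and 23.7 CPM in FB23-2, with an interval of -0.19 to 0.26. The libraries of the compounds overlapped in both genes, and both differences were bounded. ALKBH5, the other known m6A eraser, was lower, with a difference of -0.26 ± 0.09 (60.8, 60.5 and 56.3 CPM in CS2 and 49.3, 50.2 and 48.6 CPM in FB23-2, adjusted p = 0.017), and was not called without CS2 replicate 2 or FB23-2 replicate 3 (-0.25 and -0.24) or with the span and GC correction (-0.09). Of its exon length 11.2% lies under another gene. The largest difference was in YTHDC2, a reader with helicase activity (0.82 ± 0.09, adjusted p = 1.9e-07), and the reader YTHDF2 was lower, with a difference of -0.30 ± 0.08.

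MYCN (chr2:15940564-15947007), the abundant MYC family member of these cells, was at 1006, 797 and 784 CPM in CS2, 933, 1007 and 770.4 CPM in FB23-2 and 1266, 1197 and 1224 CPM in DMSO. The compounds overlapped, both below DMSO, and the interval of their difference was -0.14 to 0.27. With the span and GC correction MYCN was called, at 0.29. MYC was low, at 4.19, 2.25 and 2.56 CPM in CS2 and 3.04, 3.40 and 2.19 CPM in FB23-2, and the interval of -0.55 to 0.43 is too wide to be bounded. Other members whose libraries overlapped and whose differences were bounded were the fork protein CDC45 (-0.24 to 0.06), the chaperone HSP90AB1 (-0.20 to 0.10; 16.6% of its windows are shared) and the complex III subunit UQCRC2 (-0.14 to 0.14).

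Targets of p53 and the BCL2 family went both ways. Of 27 p53 targets 8 were higher and 11 lower, 29.6% and 40.7% against 29.7% and 30.0% of all genes, so the higher share was that of the background. CCNG1, a cyclin that feeds back on p53, was higher by 1.62 ± 0.10 and the stress sensor SESN2, also an ATF4 target, by 1.43 ± 0.13. PLK2 (chr5:58453982-58460260), a kinase of the stress response, was at 149.7, 170.4 and 143 CPM in CS2, 48.1, 44.3 and 56.6 CPM in FB23-2 and 45.4, 46.2 and 46.2 CPM in DMSO. CS2 alone was raised, and the difference was -1.64 ± 0.09 (adjusted p = 2.8e-11). BTG2, an antiproliferative factor, and the quinone reductase TP53I3 were lower, with differences of -1.35 ± 0.11 and -1.67 ± 0.21. In the BCL2 family 4 of 15 were higher and 8 lower, 26.7% and 53.3%. HRK (chr12:116856144-116881441), a neuronal BH3-only activator of apoptosis, was at 8.11, 8.02 and 9.41 CPM in CS2, 32.9, 34.5 and 38.1 CPM in FB23-2 and 4.39, 5.22 and 4.35 CPM in DMSO. Both compounds exceeded DMSO, and they differed by 2.05 ± 0.12 (adjusted p = 2.6e-11). BCL2, the survival factor, was higher by 1.03 ± 0.07: it was at 56.9, 59.1 and 60.1 CPM in CS2, 124, 124 and 114 CPM in FB23-2 and 151, 151 and 149.9 CPM in DMSO, so that CS2 was the low group. BAX, the pore-forming effector, and the activator BID were lower, with differences of -1.09 ± 0.12 and -0.86 ± 0.08.

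Several of the largest single differences were found outside these lists. Among called genes with at least 10 CPM in a compound and no overlap between the compounds, the 12 with the largest increases included AQP4 (chr18:26852038-26865818), a water channel, at 0.324, 0.201 and 0.665 CPM in CS2, 12.02, 20.8 and 11.7 CPM in FB23-2 and 5.92, 4.13 and 5.35 CPM in DMSO. The compounds stood on opposite sides of DMSO (-3.69 and 1.53), 5.22 ± 0.33 apart (adjusted p = 1.4e-09). The same held for C5, the complement protein, at 1.12, 1.34 and 1.80 CPM in CS2 and 21.4, 27.7 and 25.2 CPM in FB23-2, with -2.46 and 1.67 against DMSO. ENDOD1, an endonuclease-like protein, BEST1, a chloride channel with 14.2% of its exon length under FTH1, SH3KBP1, an endocytic adaptor, MT1G, a metallothionein with 16.5% of its windows shared, STK32A, a kinase, and PRR15 were higher by 3.89 ± 0.15, 3.79 ± 0.15, 3.69 ± 0.25, 3.54 ± 0.21, 3.47 ± 0.15 and 4.26 ± 0.30.

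At the other end, C1orf127 (chr1:10946471-10982037) was at 26.6, 27.6 and 26.98 CPM in CS2 and 1.58, 0.743 and 2.07 CPM in FB23-2, a difference of -4.24 ± 0.20 (adjusted p = 2.9e-12). NBAT1, a long non-coding RNA known from neuroblastoma, with 11.7% of its exon length under CASC15, was at 21.3, 27.1 and 22.1 CPM in CS2, 1.07, 1.34 and 1.43 CPM in FB23-2 and 5.03, 5.12 and 5.06 CPM in DMSO. It was above DMSO in every CS2 library and below it in every FB23-2 library, a difference of -4.19 ± 0.16 (adjusted p = 1.8e-13). MUC5AC, a secreted mucin, IGHM, the immunoglobulin mu chain, KRT15, a basal keratin, GRAP2, an adaptor of T-cell signalling, FAM30A, GNG8, a G-protein subunit, PHLDA2, an imprinted growth regulator, MMP10, a metalloproteinase, and SLC38A5, an amino acid carrier, were lower, with differences of -4.18 ± 0.21, -3.40 ± 0.17, -3.05 ± 0.17, -3.33 ± 0.14, -3.22 ± 0.29, -3.16 ± 0.22, -3.03 ± 0.18, -2.87 ± 0.16 and -2.84 ± 0.17. MUC5AC, IGHM and FAM30A were below DMSO with both compounds, and further with FB23-2: IGHM was at 53.8 ± 2.25 CPM in DMSO, 12.4 ± 2.89 CPM in CS2 and 1.18 ± 0.157 CPM in FB23-2. Of the 12 at this end, SLC18A1 is described above.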

How the data were processed

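Per the labels' protocols, RNA of H69 cells was extracted with TRIzol and mRNA libraries were made with a Hieff NGS Ultima kit, and hg38 is named in the submitters' processing notes. The authors deposited raw read counts per gene, 1 column per library. The sources used here do not name the aligner, counter, annotation or strand setting, so reads of a gene and an overlapping partner cannot be told apart. From these counts, edgeR 4.0.16 in R 4.3.3 (filterByExpr with a minimum count of 10 and total of 15, TMM, quasi-likelihood test, Benjamini-Hochberg adjustment, threshold 0.05) fitted all 9 H69 libraries, which share 1 estimate of the spread, and FB23-2 was contrasted with CS2; a minimum fold of 1.5 was tested with glmTreat. CPM are TMM-scaled. Names, spans and positions came from GENCODE 29 (58261 of 62754 identifiers), and promoters from RefSeq GRCh38.p14 (12577 of 19781 genes tested); 3 counts correspond to 0.0666 to 0.101 CPM. No library had the same counts as another.

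The text names FTO, ALKBH5, METTL3, METTL14, DHODH, UMPS, CAD, MYCN, MYC and NEUROD1; the 12 largest differences each way with at least 10 CPM and no overlap; and, in each list, up to 3 called members each way with at least 1 CPM and the uncalled member with the narrowest interval; and the 5 largest differences among genes called in opposite directions against DMSO. Not all that qualify are named, some results being not reported here, and exceptions are stated. Members and lists were chosen with earlier results of these data known. Deviations from group means of same-numbered CS2 and FB23-2 libraries correlated at 0.494, 0.448 and 0.13 over 10000 genes. For differently numbered libraries of these groups the values ran from -0.442 to 0.0623. Deviations within a group cancel, so these values are tied to each other and do not settle whether the numbers pair the libraries. The labels name no shared source, and the replicate block was fitted as an alternative. Other alternatives were DESeq2 1.42.0, other scalings and filters, only the 6 treated libraries, each library left out, and a correction for gene span and GC content with mgcv 1.9.3. The fits were tested on simulated data.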

Additional observations from a re-analysis of the deposited data

How the results depend on the processing

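Normalization, test and filter were varied in turn, and each library was left out. The counts of genes called higher and lower were 5864 and 5936 with relative log expression factors, 5855 and 5767 with library size alone, 6051 and 6176 with no filter on low counts, 5079 and 4910 with a mean of at least 1 CPM, 5431 and 5484 with only the 6 treated libraries, 5961 and 5869 without mitochondrial genes, 5776 and 5842 with DESeq2 and 5751 and 5735 with the span and GC correction. With the replicate block they were 6024 and 6112, and 11701 of the 11799 calls remained. Leaving out 1 library gave 5453 to 5809 higher and 5512 to 5852 lower. No call was reversed under these settings, except 127 with the span and GC correction. That correction includes a change in FTO to -0.18 and in CAD to 0.064; the cause was not tested. The genes more than 2-fold higher and lower numbered 1462 and 1303 with a mean of at least 1 CPM, where fewer genes are tested, and 4295 differences were bounded with no filter, where more are. The span correction, which removes the trend by construction, left medians of -0.028 up to 10 kb, -0.0010 for 10 to 50 kb, 0.0066 for 50 to 200 kb, -0.012 for 200 to 500 kb and 0.060 over 500 kb; with a mean of at least 1 CPM the median over 500 kb was 1.15. Among the 147 genes whose values are printed, the replicate block changed the calls of MT-CO1, MT-RNR2 and PCSK1, given in the report, and no other; fitted on the 6 treated libraries alone, the block changed those of MT-CO1, MT-RNR2 and MT-ND2. The median 95% interval extended 0.30 on the log2 scale to each side; 6199 genes were neither called nor bounded at this depth. Intervals and floors cover counting error and the spread between these libraries.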

Other observations

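Genes of lipid and carbon metabolism, examined outside the comparisons above, went in both directions. Of 23 genes of cholesterol synthesis and uptake 12 were higher and 3 lower with FB23-2 (median 0.32); without FB23-2 replicate 3 the lower count was 5. MSMO1, a sterol oxidase, stood at 65.2, 73.4 and 68.1 CPM in CS2 and 121, 147 and 131 CPM in FB23-2, without overlap, a difference of 0.95 ± 0.10 (adjusted p = 8.6e-08). Of 13 fatty acid genes 6 were higher and 3 lower, among them the synthase FASN, with -1.11 ± 0.09. Glycolysis had 7 higher (31.8%) and 9 lower (40.9%) of 22, against 29.7% and 30.0% of all genes. With the span and GC correction 10 were higher and 6 lower. HK2, a hexokinase, differed by 1.64 ± 0.14 and PFKL, a phosphofructokinase, by -0.79 ± 0.08. Hypoxia genes had 10 higher and 2 lower of 20 (median 0.33). P4HA2, a collagen prolyl hydroxylase, stood at 7.65 ± 0.877 CPM in CS2 and 50.6 ± 1.33 CPM in FB23-2 (mean and SD, n = 3), without overlap, a difference of 2.72 ± 0.14 (adjusted p = 5.3e-12).

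Lysosome and autophagy genes had 7 higher and 13 lower of 26. NPC2, a cholesterol carrier, differed by 1.64 ± 0.12, and NEU1, a sialidase, by -1.21 ± 0.12. Replication-dependent histones, whose mRNAs mostly lack poly(A) tails, had 11 higher and 3 lower of 24 (median 0.30), and both compounds lay below DMSO in that list (medians of -0.38 for FB23-2 and -0.56 for CS2, against the same DMSO libraries). H2BC11 was at 4.04, 4.13 and 4.52 CPM in CS2 and 12.3, 17.8 and 14.2 CPM in FB23-2, against 25.1, 22.7 and 22.5 CPM in DMSO. Homologous recombination genes had 7 higher and 4 lower of 20, but 3 and 9 with the span and GC correction. Heat shock chaperones had 3 higher and 7 lower of 17 (3 lower without CS2 replicate 2, 5 higher with the correction), and SR splicing factors 3 and 6 of 17 (3 lower without CS2 replicate 3). Among 228 zinc finger genes of chromosome 19, 83 (36.4%) were higher and 35 (15.4%) lower (median 0.12), against 29.7% and 30.0% of all genes. Of 229 zinc finger genes on other chromosomes, 77 (33.6%) were higher and 54 (23.6%) lower (median 0.05).

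Of 5 fibroblast genes tested, 4 were lower and 1 was higher with FB23-2. The 5 defining markers summed to 32.9 to 39.6 CPM in CS2, 10.5 to 15.3 CPM in FB23-2 and 52.5 to 54.3 CPM in DMSO, with COL3A1 and DCN below 0.1 CPM. Most of each sum came from COL1A2. COL1A2, a collagen chain, stood at 38.9, 34.01 and 32.4 CPM in CS2 and 14.3, 9.59 and 11.95 CPM in FB23-2, a difference of -1.56 ± 0.12, and POSTN, a matrix protein, at 291, 338 and 348 and 139, 146 and 127 CPM, a difference of -1.25 ± 0.09. COL1A1, the partner chain and the 1 higher gene, had means of 0.441 ± 0.162 CPM in CS2 and 0.994 ± 0.225 CPM in FB23-2, a difference of 1.15 ± 0.36 (adjusted p = 0.00947), and was not called without CS2 replicate 2 (0.90, adjusted p = 0.0513). The part of other cells in these values was not tested.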
